A study of Mus musculus with 16 samples.

Results

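The genes described here are 7 that encode proteases released from cells, namely Adamts1, Adamts4, Adamts5, Bmp1, Pappa, Plau and Masp1. They were chosen by name, and all 7 were found among the 5171 genes in the deposited tables. The study had singled out extracellular proteases from these same libraries among genes that rose in WT colitis and lost that response in KO, so their changes in both genotypes are a description and not independent evidence. RNA was sequenced from whole tissue of the central part of the colon of male C57BL/6 mice. They formed 4 groups, without treatment (control) or after colitis. Wild type (WT) mice gave 3 control and 5 colitis libraries. Mice in which Cre recombinase under the villin promoter (Vil-Cre) deletes Smarcad1, a chromatin remodelling ATPase (KO), likewise gave 3 control and 5 colitis libraries. The colitis groups drank water with 1% DSS (dextran sodium sulphate, which injures the lining of the colon) for 15 days. Mice of every group, controls included, received an enriched microbiota through bedding and shared ventilation that began 2 weeks before DSS. Villin is active in epithelial cells, so the other cells of KO tissue still carry Smarcad1, and the floxed line came from 1 embryonic stem cell clone. The sample labels name the tissue as colon, while the design text of the series speaks of small intestine.

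The extracellular matrix and many secreted signals are shaped after release by proteases. The ADAMTS enzymes Adamts1, Adamts4 and Adamts5 cut the large proteoglycans versican and aggrecan. Bmp1 removes the C-terminal propeptide of fibrillar procollagens, and it also frees BMP ligands by cutting the antagonist chordin. Pappa cuts insulin-like growth factor binding proteins, which releases IGF near the cell surface. Plau, urokinase, turns plasminogen into plasmin, and its receptor Plaur holds it at the cell surface. Masp1 is a serine protease that starts the lectin pathway of complement. In inflamed gut several of these enzymes are known as products of stromal and immune cells. The paper stained colon for Adamts1, Adamts5 and Bmp1 protein and saw patterns like that of myeloperoxidase, its marker of infiltrating cells. From this the paper attributes these proteases to invading neutrophils and monocytes and not to the epithelium. Protein was not examined here.

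All 7 genes rose with colitis in WT colon, and none passed the test for colitis in KO colon. The authors' mean rose by 0.44 (Bmp1) to 1.09 (Masp1) on the log2 scale in WT, or 1.36-fold to 2.13-fold. In KO the same difference ran from −0.19 (Adamts4) to 0.36 (Pappa), with 4 genes below 0 and 3 above. Added together, the 7 genes gave 126.8 RPM (reads scaled to a library total of 1 M reads) in WT control, 128.6 in KO control, 200.5 in WT colitis and 128.4 in KO colitis. Thus the combined level stood at 1.58 times control in WT colitis and at 0.999 times control in KO colitis. Among all listed genes, 36.6% were listed as higher in WT colitis and 78.4% were listed in either direction in KO colitis, against 7 of 7 and 0 of 7 of the protease genes. Missing the authors' threshold does not show that a gene did not change.

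A gene was listed when it had passed a false discovery rate of 5% in the authors' DESeq2 test of 1 comparison. Every value here is an authors' mean of log2 RPM over the libraries of a group, and the values of single libraries were not analysed here. Hence whether libraries of different groups overlap was not examined, and the spread between mice is not given. The paper also provides normalised read counts by sample, which were not used here. The errors printed with means and differences are 95% counting intervals from the reads behind each mean, and they cover counting error only. Whether the response to colitis differed between genotypes beyond the spread between mice was not tested. The geometric mean library held between 8.005 M reads (WT colitis) and 10.1 M reads (WT control), so the 7 genes were highest in the group of lowest depth. Smarcad1 itself stood at 5.77 and 5.68 log2 RPM in WT control and WT colitis, and at 4.59 and 4.55 in the KO groups. Of 12 colon epithelium markers 4 were in the tables (Lypd8, Slc26a3, Car1 and Aqp8) and were abundant, with a summed level of 19841 to 21418 RPM in the 4 groups. Most of that sum was Lypd8, which rose slightly in KO (0.27, with 0.22 in WT). The enterocyte transporter Slc26a3 fell by 1.31 in WT and 0.63 in KO, the water channel Aqp8 fell from 10.76 to 9.36 log2 RPM in WT and by 0.89 in KO, and Car1 fell by 1.49 in KO, with a difference of −0.83 in WT. Over the 4 markers the median colitis difference was −1.07 in WT and −0.76 in KO, and the part of these shifts in the protease results was not tested.

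**Figure D1:**
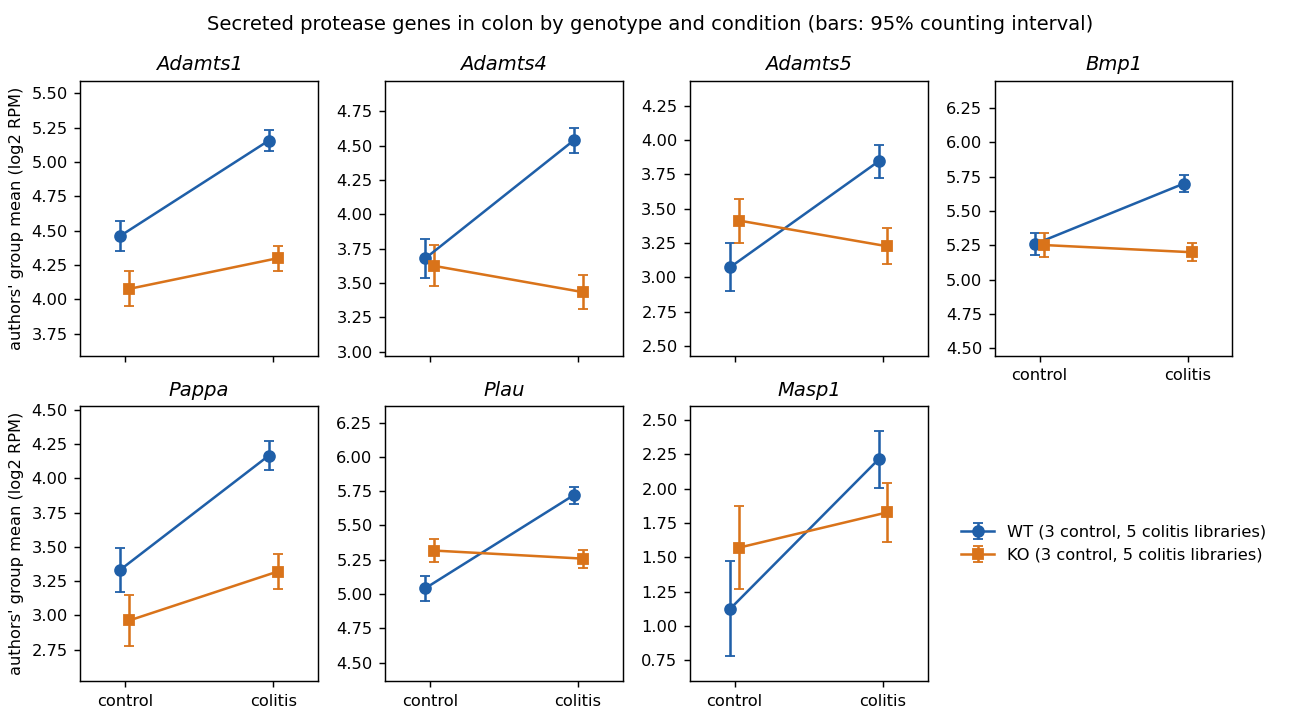
Authors' group means of the 7 protease genes (vertical axis, log2 RPM, own range but equal span in each panel) in control and colitis, for WT (circles) and KO (squares), with bars for the 95% counting interval. The WT colitis point lies above the other 3 points in every panel, for example at 4.54 for Adamts4 against 3.43 to 3.68.

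Of the 7 genes, 3 lie on chromosome 16 (coordinates are GRCm38 throughout). Adamts1 (ENSMUSG00000022893, chromosome 16 from 85793827 to 85803113, minus strand, 10 exon blocks) and Adamts5 (ENSMUSG00000022894, chromosome 16 from 85858170 to 85901125, minus strand, 8 exon blocks) are neighbours, separated by 55.1 kb that holds 0 other listed genes. The promoter of Adamts1, the only 1 of the 7 genes for which a RefSeq promoter was matched, is shown here on the GRCm38.p6 build. It spans chr16:85803114-85803363 on the minus strand, the 250 bases before the annotated start, written 5′ to 3′ with the TATA box and the GC boxes in capitals.
Adamts1: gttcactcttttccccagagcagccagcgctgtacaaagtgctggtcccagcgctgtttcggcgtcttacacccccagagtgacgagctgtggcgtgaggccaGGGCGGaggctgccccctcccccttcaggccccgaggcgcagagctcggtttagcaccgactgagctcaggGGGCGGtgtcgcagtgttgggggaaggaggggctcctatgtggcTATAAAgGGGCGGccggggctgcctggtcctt
One TATA box (TATAAA) begins 32 bases before the start, a motif found on either strand in 12.4% of the 32851 RefSeq promoters of this length. GC boxes (GGGCGG) begin 147, 76 and 25 bases before it, and 32.7% of promoters hold at least 1. Neither the AP-1 motif (TGANTCA, in 6.75% of promoters) nor the cyclic AMP response element (TGACGTCA, in 1.55%) matched on either strand. These matches describe letters and no binding was measured.

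The aggrecanases are taken first. In WT colon the authors' mean of Adamts1 was 4.46 ± 0.11 log2 RPM in control and 5.16 ± 0.07 in colitis, and in KO colon 4.08 ± 0.13 and 4.30 ± 0.09. WT colitis was thus the high group and KO control the low one, with the remaining groups between them. Adamts1 rose 1.62-fold in WT (0.69 ± 0.13 on the log2 scale), while the KO difference was 0.22 ± 0.16. Adamts1 differed between genotypes already in control, where KO was below WT by 0.39 (counting interval −0.55 to −0.22), although the authors did not list it there. In colitis the Adamts1 level in KO was 55.2% of that in WT. A gap of the same sign was thus present in control mice, and the KO response minus the WT response was −0.47 on the log2 scale (−0.68 to −0.27).

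Adamts4 (ENSMUSG00000006403, chromosome 1 from 171250421 to 171260637, plus strand, 9 exon blocks) had similar means in the control groups and the widest gap of the 7 in colitis. The authors' means were 3.68 ± 0.14 log2 RPM in WT control, 3.63 ± 0.15 in KO control, 4.54 ± 0.09 in WT colitis and 3.43 ± 0.12 in KO colitis. The high group was WT colitis, and KO colitis was the lowest of the 4. Adamts4 rose 1.81-fold in WT (0.86 ± 0.17), and the KO difference was −0.19 ± 0.19. In colitis the KO level was 46.5% of the WT level, a difference of −1.10 (−1.26 to −0.95), and the KO response minus the WT response was −1.05 (−1.31 to −0.79). In control the difference was −0.055 (−0.26 to 0.15).

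Adamts5, the neighbour of Adamts1, had authors' means of 3.07 ± 0.18 log2 RPM in WT control, 3.41 ± 0.16 in KO control, 3.84 ± 0.12 in WT colitis and 3.23 ± 0.13 in KO colitis. Adamts5 rose 1.71-fold in WT (0.77 ± 0.21), and the KO difference was −0.19 ± 0.21. Unlike its neighbour, Adamts5 was higher in KO than in WT in control, by 0.34 (0.10 to 0.58). The difference was 0.35 with groups centred on the median of all listed genes. Its sign turned when groups were centred on the 36 genes listed in neither colitis table. Those genes had been listed for differing between genotypes, so that centring shifted every KO minus WT difference in control by −0.63. In colitis the KO mean was below WT by 0.62 (−0.80 to −0.44). The Adamts5 response in KO minus that in WT was −0.96 (−1.26 to −0.66), and the order of the genotypes was opposite in control and colitis.

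Bmp1 (ENSMUSG00000022098, chromosome 14 from 70474557 to 70520260, minus strand, 20 exon blocks), the procollagen C-proteinase, had the smallest WT response and the flattest KO profile. Its authors' means were 5.26 ± 0.08 log2 RPM in WT control and 5.70 ± 0.06 in WT colitis, against 5.25 ± 0.08 and 5.20 ± 0.07 in KO. The 3 groups other than WT colitis lay between 5.20 and 5.26. Bmp1 rose 1.36-fold in WT (0.44 ± 0.10), and the KO difference was −0.05 ± 0.11. The genotypes were level in control, with a difference of −0.0076 (−0.13 to 0.11), and in colitis KO was at 70.7% of WT. With 362 to 415 reads per library behind its means, Bmp1 was together with Plau the best counted of the genes.

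Pappa (ENSMUSG00000028370, chromosome 4 from 65124174 to 65357509, plus strand, 22 exon blocks), the IGF binding protein protease, resembled Adamts1. Its authors' means were 3.33 ± 0.16 log2 RPM in WT control, 2.96 ± 0.19 in KO control, 4.16 ± 0.11 in WT colitis and 3.32 ± 0.13 in KO colitis. KO colitis was thus at the level of WT control. Pappa rose 1.78-fold in WT (0.83 ± 0.19), and the KO difference of 0.36 ± 0.23 was the highest of the 7. In control KO was below WT by 0.37 (−0.62 to −0.12), and in colitis the Pappa level in KO was 55.7% of that in WT.

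Plau (ENSMUSG00000021822, chromosome 14 from 20836660 to 20843385, plus strand, 11 exon blocks) encodes the plasminogen activator urokinase. In WT the authors' mean was 5.04 ± 0.09 log2 RPM in control and 5.72 ± 0.06 in colitis, and in KO it was 5.32 ± 0.08 and 5.26 ± 0.07. Plau rose 1.60-fold in WT (0.68 ± 0.11), and the KO difference was −0.06 ± 0.11. As with Adamts5, the control level was higher in KO, by 0.27 (0.15 to 0.40), or 0.28 under centring on the median of all listed genes. Centring on the 36 genes named above turned the sign, through the same shift of all genes. In colitis KO was at 72.6% of WT, so here too the genotypes changed order between control and colitis.

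Masp1 (ENSMUSG00000022887, chromosome 16 from 23451785 to 23520590, minus strand, 18 exon blocks), the lectin pathway protease, was the least counted, with 22.1 to 37.2 reads per library. Its authors' means were 1.13 ± 0.35 log2 RPM in WT control, 1.57 ± 0.30 in KO control, 2.21 ± 0.21 in WT colitis and 1.83 ± 0.21 in KO colitis. Masp1 rose 2.13-fold in WT (1.09 ± 0.40), and the KO difference was 0.26 ± 0.37. In colitis KO was at 76.5% of WT (−0.39, −0.68 to −0.09), and in control the difference was 0.45 (−0.02 to 0.91). Both counting intervals come near 0 or cross it, so this depth resolves the genotypes less well for Masp1 than for the other genes.

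**Figure D2:**
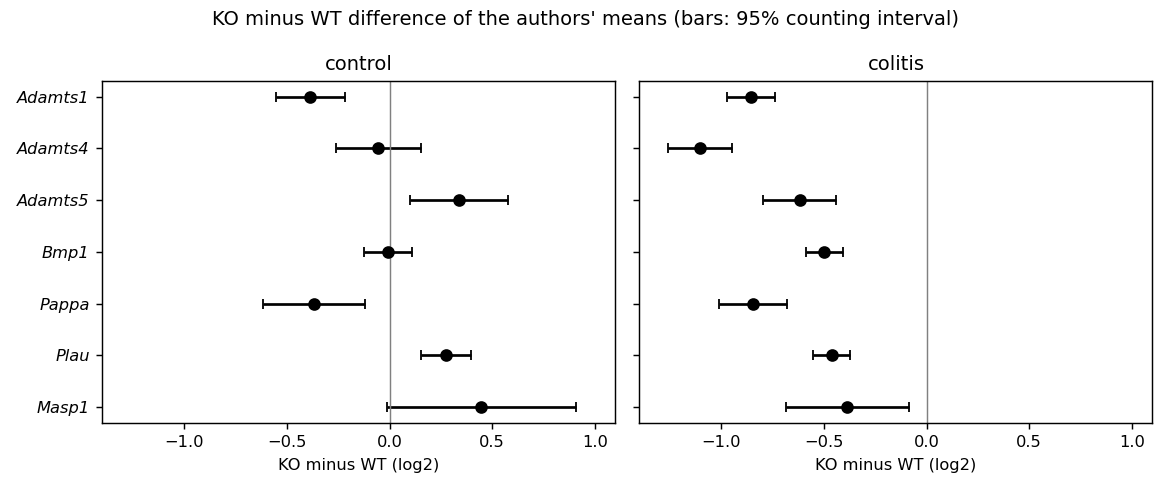
KO minus WT difference of the authors' means (horizontal axis, log2) for each protease gene in control (left) and colitis (right), with bars for the 95% counting interval and a line at 0. In control the points fall on both sides of 0, from −0.39 to 0.45, and in colitis all 7 lie below it, from −1.10 to −0.39.

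Compared between genotypes within a condition, the 7 genes thus had a mixed order in control and a common one in colitis. In control the counting interval lay below 0 for 2 genes (Adamts1, Pappa), above 0 for 2 (Adamts5, Plau) and across 0 for 3. In colitis it lay below 0 for all 7. Their median was −0.62, against −0.01 over all listed genes and −0.11 over the 1895 genes listed as higher in WT colitis. The 7 genes had been singled out from these libraries with their weak KO response in view, so nothing is read from the common order. None of the 7 was in the authors' table for KO against WT in control or in that for colitis, which list 0.89% and 1.08% of the 5171 genes. A counting interval away from 0 is a weaker statement than passing the authors' test, which also weighs the spread between mice.

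The changes with colitis were then set beside those of the 1895 genes listed as higher in WT colitis. The median WT change was 0.77 for the protease genes and 0.92 for the 1895 genes. The median KO change was −0.05 for the protease genes and 0.69 for the 1895. Of the 1895 genes, 26.5% were not listed in KO, 73.6% had a smaller change in KO than in WT, and 2.27% had a KO colitis mean under the KO control mean. Of the protease genes, 7, 7 and 4 of 7 did so. The 1895 were chosen for their WT values, which by itself favours a larger change in WT. The protease genes, all among the 1895, had moreover been singled out with their weak KO response in view, so nothing is read from their lower KO median and counts. Centring each group on the median of all listed genes lowered each WT change by 0.12 and each KO change by 0.07.

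**Figure D3:**
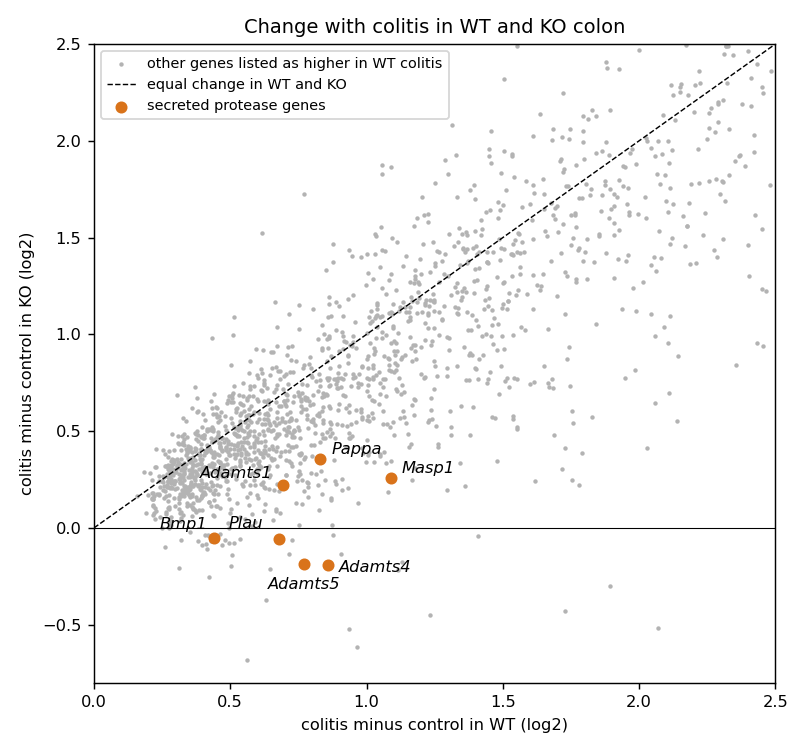
Colitis minus control difference in KO (vertical axis, log2) against that in WT (horizontal axis, log2) for the genes listed as higher in WT colitis, with the protease genes as large named points and a dashed line of equal change. Of 1895 genes, 242 lie outside the axes, and the 7 protease genes all lie below the dashed line, with Adamts4, Adamts5, Bmp1 and Plau under 0 on the vertical axis.

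Levels can be compared between genes only per length of exon, and Plau was then the highest of the 7 in every group. Its level per length was 4.48 log2 RPM per kb in WT colitis and 4.02 in KO colitis. Bmp1 (2.11) and Adamts1 (2.06) followed in WT control, then Adamts4 (1.41), Pappa (−0.13), Adamts5 (−0.36) and Masp1 (−2.17). Masp1 was the lowest in all 4 groups. The order of levels per length was otherwise the same in the 4 groups, except that Adamts1 (2.75) stood above Bmp1 (2.55) in WT colitis and Adamts5 (−0.02) above Pappa (−0.50) in KO control. In WT control the neighbours Bmp1 and Adamts1, and Pappa and Adamts5, had overlapping counting intervals.

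For each protease gene the 3 listed genes with the most similar profile were taken, by Euclidean distance over the 4 group means after each gene was centred on its own average. Bmp1 had the closest match, Kirrel (distance 0.0349 on the log2 scale), followed by Pdgfrb (0.0716), a receptor of fibroblasts and pericytes, and Wnt5a (0.0813). Adamts1 and Pappa were each among the nearest of the other (0.136), and both had Cwh43 nearest (0.108 and 0.130). Itgb6 (0.156) was also near Adamts1 and Loxl2 (0.149), a collagen crosslinking enzyme, near Pappa. Adamts5 and Plau shared Col6a4, a collagen VI chain, at 0.111 and 0.0778. Adamts5 also had Plau (0.122) and Slc25a48 (0.133), and Plau had Chst11 (0.0974), which sulphates chondroitin, and Cyp4f40 (0.111). Adamts4 stood farthest from its neighbours, with Isx at 0.170, Angptl4 at 0.228 and Cwh43 at 0.260. Masp1 had Ripor3 (0.0711), P2rx1 (0.0960) and Asap3 (0.143). The 18 distinct neighbours were all listed as higher in WT colitis, and 1 of them, Loxl2, was also listed in KO. Over all listed genes the shares were 36.6% for higher in WT and 78.4% for either direction in KO. The neighbours were picked for likeness to genes listed in WT and not in KO. Their counts thus follow largely from that choice, and nothing is read from them. With 4 points per gene, these profiles are descriptions.

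The other genes of each pathway were counted from named lists, over the genes present in the tables. Of all 5171 listed genes, 1895 were listed as higher and 1366 as lower in WT colitis. In KO colitis 2316 were listed as higher and 1740 as lower. Of 22 other Adamts and Adamts-like genes 6 were present, of which 4 rose and 1 fell in WT, and 2 rose and 1 fell in KO. Adamts6 rose in both (1.63 in WT, 1.26 in KO), while Adamts17 rose by 1.26 in WT and, with a difference of 0.42, was not listed in KO. Adamtsl2, a microfibril-associated relative without protease activity, rose by 2.06 in WT, had a difference of 0.65 in KO, and was lower in KO colitis than in WT colitis by the authors' test. Adamts18 fell in WT by 2.60, and its KO means were 2.24 log2 RPM in control and −1.81, under 3 reads per library, in colitis. For this list the median difference was 0.99 in WT and 0.42 in KO.

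The substrates of the aggrecanases were sparsely present. Of 13 hyalectans and hyaluronan partners 4 were in the tables, and 3 rose in WT and 1 in KO. Versican (Vcan), the proteoglycan that all 3 Adamts enzymes cut, rose by 0.87 in WT, and its KO difference was 0.16. Its authors' means were 5.37 log2 RPM in WT control, 5.45 in KO control, 6.24 in WT colitis and 5.61 in KO colitis, so WT colitis was again the high group. The hyaluronan synthase Has1 was under 3 reads per library in both controls and was at least 7.17-fold higher in WT colitis, computed against 3 reads per library here and for the bounds below. Has2 rose in KO (0.96), with a difference of 0.36 in WT, and the hyaluronan receptor Cd44 rose in WT (0.35), with 0.12 in KO.

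Among relatives, enhancers and substrates of Bmp1, 12 of 18 genes were present, all 12 rose in WT and 7 in KO. The procollagen genes Col1a1 (1.23 in WT, 0.56 in KO), Col1a2 (1.01 and 0.55) and Col3a1 (0.93 and 0.53) rose in both genotypes. Lox, the lysyl oxidase whose proenzyme Bmp1 activates, rose by 2.01 in WT and 1.27 in KO. These 4 substrates were thus listed in KO, where Bmp1 itself was not. All 12 had the smaller change in KO, with a median of 0.84 in WT and 0.51 in KO. They belong to the 1895 genes listed as higher in WT colitis. Of those, 73.6% had the smaller change in KO, with medians of 0.92 and 0.69. In the IGF axis, 7 of 12 genes were present, with 4 rising and 2 falling in WT and 5 rising in KO. The Pappa substrates Igfbp4 (1.84 in WT, 1.05 in KO) and Igfbp5 (1.69 and 0.73) rose in both genotypes, as did the ligand Igf1 (1.77 and 1.27). Igfbp6 fell in WT by 1.17, with a KO difference of −1.11. The IGF list had a median of 0.76 in WT and 0.60 in KO.

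The plasminogen system had 5 of 13 genes in the tables, of which 5 rose in WT and 3 in KO. The urokinase receptor Plaur had means of 4.17 and 4.12 log2 RPM in WT and KO control, and 5.65 and 5.04 in WT and KO colitis. Plaur thus rose in both genotypes (1.48 and 0.92), while its ligand Plau was listed in WT alone. The growth factor Hgf rose by 1.28 in WT and 1.14 in KO, and the protease inhibitor Serpine2 rose in WT (0.80), with 0.37 in KO. The medians of this list were 1.25 and 0.92. In the lectin pathway 7 of 13 genes were present, with 5 rising and 1 falling in each genotype. C3 (2.24 in WT, 1.63 in KO), C4b (1.95 and 1.38) and C2 (1.33 and 1.11), the components on which the pathway acts, rose in both. Masp2, the partner protease of Masp1, fell by 1.23 in KO and had a difference of −0.80 in WT, where Masp1 rose. The lectin pathway medians were 0.86 and 0.76.

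Inhibitors and matrix metalloproteinases, which act on many of the same matrix proteins, were also counted. Of 6 metalloprotease inhibitors 4 were present, with 2 rising and 2 falling in WT and 2 rising in KO. Timp1 rose by 3.89 in WT and 2.67 in KO, from 1.36 and 1.32 log2 RPM in the controls. A2m, a broad protease inhibitor, was under 3 reads per library in both controls and rose with colitis, to at least 11.8-fold in WT and 4.71-fold in KO. Timp4 fell in WT by 1.33 and Reck by 0.65, with KO differences of −0.67 and −0.52. The median of these inhibitors was 1.62 in WT and 1.08 in KO (1.46 and 0.86 with low means raised to 3 reads), and it rests on 4 genes that went both ways. Of 23 matrix metalloproteinases 14 were present, with 12 rising and 1 falling in WT and 9 rising and 1 falling in KO. Mmp10 rose by 4.85 and 4.41, Mmp3 by 4.75 and 3.98, and Mmp13 by 3.37 and 2.12. Mmp8, a neutrophil collagenase, was under 3 reads per library in both controls and also rose, to at least 11.0-fold (WT) and 1.75-fold (KO) of control. The median of this family was 2.54 in WT and 2.33 in KO, or 1.98 and 0.83 with low means raised to 3 reads.

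**Figure D4:**
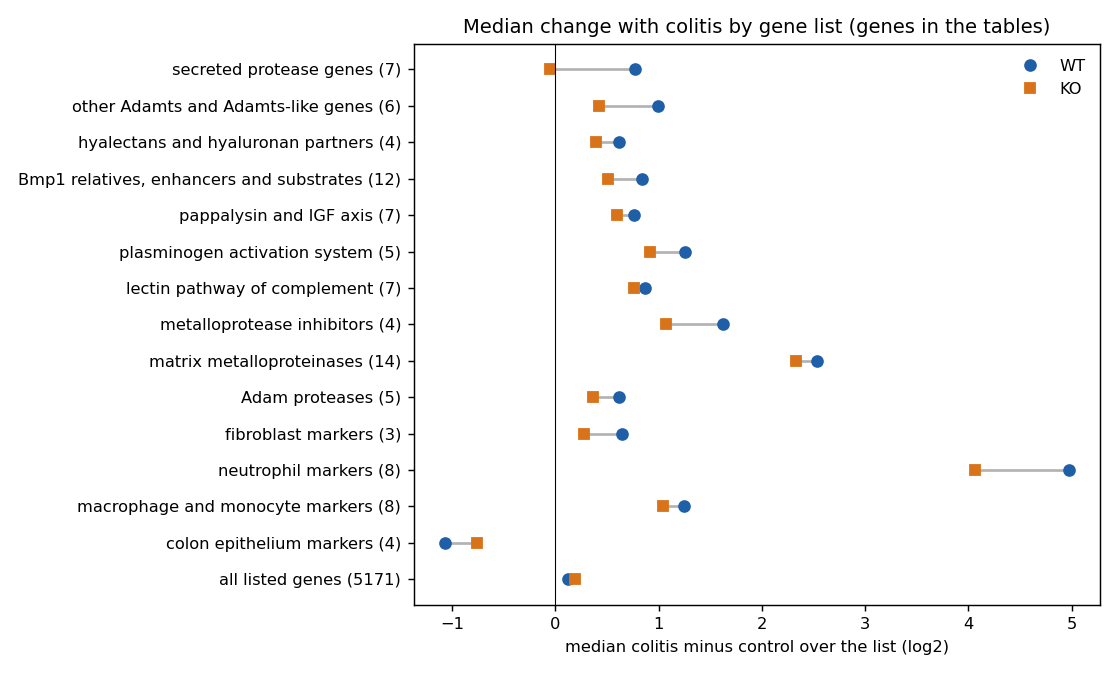
Median colitis minus control difference (horizontal axis, log2) over the genes of each list present in the tables, in WT (circles) and KO (squares), with the number of genes in brackets. The protease genes have medians of 0.77 in WT and −0.05 in KO. The KO square lies left of the WT circle in each list of pathway genes shown. For colon epithelium markers it lies to the right (−1.07 in WT, −0.76 in KO). Over all listed genes, fallers included, the medians stand at 0.13 and 0.19. The 1895 genes listed as higher in WT colitis, not drawn, have medians of 0.92 and 0.69. Genes of that kind make up much of the pathway lists.

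Colon tissue holds many cell types, and in such bulk samples fewer cells of a type and less RNA per cell cannot be told apart. Fibroblast markers were therefore read beside the protease genes. Only 3 of the 10 on the list were in the tables, and their summed level was 178 RPM in WT control, 174 in KO control, 316 in WT colitis and 248 in KO colitis. All 3 rose in WT (Lum by 1.07, Thy1 by 0.65 and Pdgfrb by 0.54), and 1 of 3, Lum (0.89), rose in KO. Pdgfrb was among the 3 nearest profiles to Bmp1, with a KO difference of −0.05. Neutrophil markers (8 of 12 present) summed to 96.3 and 103 RPM in the controls, 406 in WT colitis and 293 in KO colitis, with 6 rising in WT and 8 in KO, and 5 of the 8 had a group mean at or under 3 reads. Ly6g made up most of that sum (92.0 RPM in WT control, 207 in WT colitis and 236 in KO colitis) and was the one marker of the 8 whose colitis mean was not lower in KO. Without Ly6g, a sum taken after seeing the data, the other 7 gave 4.25 and 4.32 RPM in the controls, 199 in WT colitis and 56.6 in KO colitis, so KO stood at 28.5% of WT in colitis against 72.1% with it. S100a8, for instance, was at or under 3 reads per library in both controls and was at least 157-fold higher in WT colitis and 24.0-fold higher in KO colitis. The most abundant gene was likewise left out of other lists. KO colitis then stood at 70.3% of WT colitis for fibroblast markers, against 78.3% with Lum. It stood at 100.3% for macrophage and monocyte markers (97.98% with C1qa) and 98.4% for epithelial markers (100.9% with Lypd8). Macrophage and monocyte markers (8 of 10 present) all rose in both genotypes, to 1013 RPM in WT and 992 in KO colitis from 459 and 485 in the controls. Smooth muscle markers (Acta2 and Myh11, 2 of 8) fell in WT and summed to 2345 and 2316 RPM in WT and KO colitis, from 3619 and 3358 in the controls. The endothelial list had 1 of 8 genes present, Tek, with differences of −0.19 in WT and −0.46 in KO. Among the markers present, the mean was lower in KO colitis than in WT colitis for 3 of 3 fibroblast and 7 of 8 neutrophil markers. It was also lower for 4 of 8 macrophage and monocyte, 1 of 2 smooth muscle, 1 of 1 endothelial and 1 of 4 epithelial markers. All 7 proteases were lower, as were 2722 of the 5171 listed genes. The part of any cell type in the result was not tested.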

How the data were processed

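Reads were mapped by the authors to GRCm38/mm10 with HISAT2 2.1.0. Uniquely mapped reads over exons were counted in SeqMonk, after reads over annotated ribosomal RNA were removed. The paper gives contamination of some samples with ribosomal RNA as the reason, and which groups held them was not examined here. The 4 deposited tables each hold the genes past a false discovery rate of 0.05 in the authors' DESeq2 comparison of 2 groups. The deposited adjusted p-value column holds the authors' own results and was not read. The deposited log2 values are the authors' means of log2 RPM over the libraries of a group, not corrected for length, with a count of 0 set to 0.9 read.

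Groups were taken from the sample labels. Changes were differences of means, and no test was run. Depth was recovered from the steps that whole reads leave in low means, in a routine tested on simulated data. Counting intervals (95%) are Poisson intervals from the reads summed over a group's libraries, and 3 reads per library was the floor. The geometric mean library was 10.1 M reads in WT control and 9.77 M in KO control, and 8.005 M (WT) and 9.87 M (KO) in colitis. Exon lengths and gene types came from GENCODE M21, in which 5091 of 5171 listed symbols were found. Coordinates are those of the tables, and 4 of the 7 genes had identical ones in M21, while Adamts5, Bmp1 and Masp1 differed at an end. A RefSeq promoter matched for 1 of 7 genes, Adamts1. Background shares are over listed genes, since the tables hold genes past a threshold. The genes, lists and markers were chosen with earlier results of these data known. Named from each list were direct partners of the 7 genes and at most 4 genes with the largest colitis change, and some results under this rule are not reported here. Analyses used Python 3.11.15, numpy 2.4.6, pandas 2.3.3 and matplotlib 3.10.9.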

Additional observations from a re-analysis of the deposited data

How the results depend on the processing

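No paired analysis was possible because the columns hold group means without replicate numbers, and leaving out single replicates was not run for the same reason. Depth limits Masp1 most, with 22.1 to 37.2 reads per library. Over the 35 differences of single protease genes, alternatives of scaling were tried. Raising means under 3 reads to 3 reads could not alter any of them, since none of the 7 genes has such a mean. Centring on the median of all listed genes moved the WT changes of Bmp1 (0.32) and Plau (0.56). Centring on the 36 genes listed in neither colitis table shifted KO minus WT by −0.63 in control and −0.70 in colitis, since those genes had been listed for differing between genotypes. The control differences then became −1.01 for Adamts1, −0.68 for Adamts4, −0.63 for Bmp1, −0.996 for Pappa and −0.18 for Masp1, and turned sign for Adamts5 (−0.29) and Plau (−0.35). Those in colitis became −1.56, −1.80, −1.32, −1.20, −1.54, −1.16 and −1.09 for Adamts1, Adamts4, Adamts5, Bmp1, Pappa, Plau and Masp1. With an absolute change of at least 1, 1 protease gene, Masp1, stayed in the WT count.

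Restricting lists to genes with at least 10 reads per library, by construction on fewer genes, gave medians of 0.36 in WT and 0.16 in KO for the hyalectans (difference −0.23) and reversed the inhibitors to −0.65 and −0.52 (difference 0.13). It gave 1.98 and 1.33 for matrix metalloproteinases and 4.43 and 3.02 for neutrophil markers. Raising low means to 3 reads gave 0.86 in KO for inhibitors, 1.98 and 0.83 for matrix metalloproteinases, and 4.40 and 3.07 for neutrophil markers.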

Other observations

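The membrane-anchored relatives of the ADAMTS enzymes, the Adam proteases, were also examined. Of 10 on the list 5 were in the tables, and each of the 5 was listed in both genotypes, 4 as higher and 1 as lower in colitis. Adam12, which is expressed by activated mesenchymal cells, rose by 2.57 in WT and 1.32 in KO, and Adam8, a leukocyte sheddase, by 1.70 and 1.53. Adamdec1, a secreted and mostly intestinal member, rose by 0.62 and 0.37, and Adam33 fell by 1.05 in WT and 1.27 in KO. The median of the list was 0.62 in WT and 0.37 in KO.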
